A study of Mus musculus with 319 samples.

Results

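Of the 40 Tas2r genes in the deposited mouse count tables, 10 are described here, Tas2r105, Tas2r117, Tas2r113, Tas2r115, Tas2r123, Tas2r129, Tas2r136, Tas2r104, Tas2r102 and Tas2r109. They were chosen from the 29 Tas2r entries of the distal cluster of chromosome 6 because their reads were seen in many cells, out of 48795 genes in all. Detection chose them, so their shares of cells are given as a description. No exact limit was set by the choice. Tas2r104 and Tas2r109, the least often seen of the 10, had at least 1 read in 19.6% of cells each, and of the genes left out Tas2r116 had 19.6%, the pseudogene Tas2r142-ps5 25.6% and the pseudogene Tas2r145-ps3 15.6%.

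The cells were sorted from pooled thymi of naive mice as CD11c-, CD45-, EPCAM+, MHCIIlo and Flare25+, where Flare25 is a reporter for Il25, a cytokine of tuft cells, and each well became 1 Smart-seq2 library. All mice carried Flare25/Flare25. The sets were 96 wells labelled Aire-/- (strain C57BL/6.Il25.Aire) and 92 wild-type (WT) wells of batch 2, and 95 WT wells of June29 and 31 of June5, both of batch 1 (strain C57BL/6.Il25). Mice were 6 weeks old, except for 5 weeks in 1 Aire-/- well, and of mixed sex by their labels. After filters 96, 89, 87 and 29 cells were kept, 301 in all, with a median of 638298, 566923, 1150167 and 539655 gene reads in those sets. Of 18 tuft cell markers, 16 or 17 were positive in at least 50% of the cells of each set. Thymocyte, B cell and dendritic cell or macrophage markers were not absent: 17, 12, 28 and 11 cells in those sets had 5 or more reads of at least 2 markers of 1 such list. Aire was read at 152.7 CPM (reads per 1000000 gene reads) in cells labelled Aire-/-, against 18.9 CPM in WT batch 2, and whole-gene counts of a disrupted allele cannot check the genotype. Each set is 1 pool without a replicate, so no p-value is given, and intervals at the 95% level cover counting error only.

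Bitter taste receptors of the Tas2r family are G protein-coupled receptors, each encoded by a single exon. In taste cells they signal through gustducin, whose alpha subunit is Gnat3, to the phospholipase Plcb2, the calcium release channel Itpr3 and the cation channel Trpm5. Tuft cells are chemosensory epithelial cells that use much of the same cascade, and they occur in the thymic medulla. Tas2r105 is known in mice as the receptor for cycloheximide.

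The 10 genes lie in 2 blocks of chromosome 6 (GRCm38). Tas2r104 and Tas2r105 occupy chr6:131684836-131687495, both on the minus strand and 0.787 kb apart, and the other 8 occupy chr6:132737003-132980965, 5 on the plus and 3 on the minus strand. Each has 1 exon block, and none overlaps another annotated gene. The sequences around the start of 4 genes are shown, from the pair with the highest ratio of joint detection below and from the 2 receptors that are immediate neighbours. They come from RefSeq on GRCm38.p6 and run from 250 bases before to 50 bases after each annotated start. Promoter entries matched 8 of the 10 genes by symbol, and Tas2r117 and Tas2r136 had none. In the first pair, Tas2r105 (chr6:131687414-131687713, minus strand) and Tas2r104 (chr6:131685695-131685994, minus strand), capitals mark every base that lies in some run of 8 bases found in both windows. Overlapping runs are merged, so a longer stretch in capitals need not occur whole in the other window.
Tas2r105: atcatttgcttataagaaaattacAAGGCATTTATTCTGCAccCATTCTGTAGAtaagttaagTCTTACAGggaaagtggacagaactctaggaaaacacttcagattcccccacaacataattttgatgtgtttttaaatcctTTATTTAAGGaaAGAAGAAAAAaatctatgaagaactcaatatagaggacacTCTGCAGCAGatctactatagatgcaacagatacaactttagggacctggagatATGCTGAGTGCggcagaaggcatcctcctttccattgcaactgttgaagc
Tas2r104: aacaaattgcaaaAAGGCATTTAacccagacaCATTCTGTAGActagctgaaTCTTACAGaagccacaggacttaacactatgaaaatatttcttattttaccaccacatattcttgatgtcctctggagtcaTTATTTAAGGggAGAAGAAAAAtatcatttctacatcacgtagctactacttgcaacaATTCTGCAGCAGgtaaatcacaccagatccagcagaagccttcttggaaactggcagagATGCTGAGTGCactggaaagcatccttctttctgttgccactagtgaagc
The second pair is Tas2r102 (chr6:132761881-132762180, plus strand) and Tas2r109 (chr6:132980916-132981215, minus strand), and capitals mark the ATG at the annotated start.
Tas2r102: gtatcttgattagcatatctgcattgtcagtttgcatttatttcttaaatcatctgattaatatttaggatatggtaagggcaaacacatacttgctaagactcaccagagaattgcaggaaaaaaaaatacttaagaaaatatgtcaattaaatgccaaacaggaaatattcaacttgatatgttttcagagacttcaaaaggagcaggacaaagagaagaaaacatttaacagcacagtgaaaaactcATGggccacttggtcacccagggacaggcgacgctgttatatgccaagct
Tas2r109: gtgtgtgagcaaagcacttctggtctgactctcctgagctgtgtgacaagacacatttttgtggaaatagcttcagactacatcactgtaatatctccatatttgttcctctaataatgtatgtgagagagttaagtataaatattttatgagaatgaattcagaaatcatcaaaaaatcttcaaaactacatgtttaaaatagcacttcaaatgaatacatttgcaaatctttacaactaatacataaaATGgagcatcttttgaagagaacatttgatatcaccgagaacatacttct
The parts before the start of Tas2r105 and Tas2r104 were 69.96% identical over 233 aligned bases, the highest of the 28 pairs of 8 windows, and those of Tas2r102 and Tas2r109 were 62.8% identical over 180. All 8 windows hold an ATG right at the annotated start, as 5.83% of 32851 windows of all genes do, so the RefSeq starts used for these windows lie at an ATG. Positions and lengths of the genes come from another annotation, GENCODE, whose models can start elsewhere, as that of Tas2r105 does, and 7 of its 10 receptor lengths are multiples of 3. The 250 bases before the RefSeq start were rich in A and T, with a median of 68.6% in the 8 windows and 47.6% in all. Few of all windows start at an ATG, so these medians and the motif shares below set unlike places of genes side by side. The A and T share of the other Tas2r windows was not computed. The octamer ATGCAAAT, a motif of POU factors such as the tuft cell regulator Pou2f3, was in 0 of 8 windows on either strand, in 7 of the 31 windows of all Tas2r genes and in 1.74% of all genes' windows. TATAAA was in the windows of Tas2r123 and Tas2r109, in 10 of the 31 Tas2r windows and in 13.6% of all. CACCTG was in 0 of 8, in 1 of the 31 Tas2r windows and in 20.2% of all. These are matches of letters in a short window and say nothing of binding.

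Over the 4 sets together, Tas2r117 was the receptor positive in the most cells and Tas2r105 the one with the highest level. With 5 or more reads as the limit for a positive cell, Tas2r117 was positive in 36.2% of the 301 cells (30.8 to 41.9) and Tas2r105 in 25.2% (20.4 to 30.6). Tas2r113 followed with 23.9%, Tas2r115 with 22.9%, Tas2r123 with 19.6%, and Tas2r129 and Tas2r136 with 19.3% each. Tas2r104 and Tas2r109 were positive in 13.6% each and Tas2r102 in 13.3% (9.67 to 17.7). The interval of Tas2r117 lay just above that of Tas2r105, and from Tas2r105 on the intervals of neighbours in this order overlapped. The order was not the same in every set or at every limit: in June29 Tas2r117, with 20.7%, was below Tas2r105 with 25.3% and Tas2r123 with 21.8%, and with 1 read as the limit Tas2r117 and Tas2r105 had the same share of all cells, 43.2%.

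**Figure D1:**
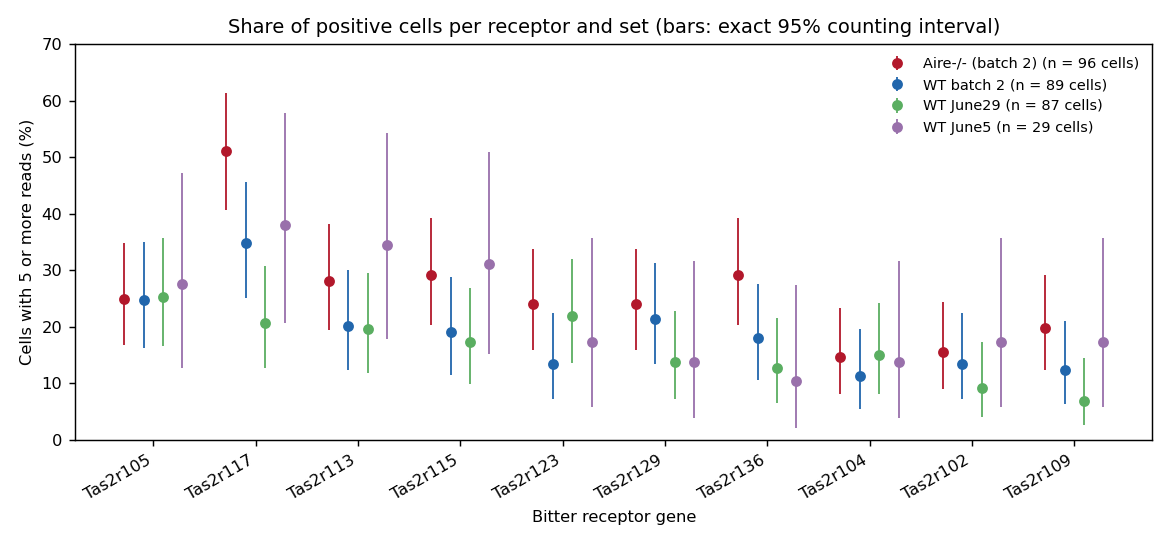
The share of cells with 5 or more reads (vertical axis, %) is drawn for each receptor (horizontal axis) in the 4 sets, with exact 95% intervals as bars. Tas2r117 in cells labelled Aire-/- is the highest point, at 51.04%, and its bar does not reach that of June29. For the other 9 receptors the bars of all sets overlap.

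The level over all cells, per kb of exon and averaged over the 4 sets, was 300.1 CPM per kb for Tas2r105. Tas2r113 had 108.03 CPM per kb and Tas2r115 had 77.9, and Tas2r104, Tas2r129 and Tas2r117 had 55.1, 51.7 and 43.7 CPM per kb. Tas2r102 lay between Tas2r115 and Tas2r104. Tas2r109, Tas2r123 and Tas2r136 were lowest, at 28.7, 18.3 and 12.3 CPM per kb. Share and level gave different orders, with a Spearman rho of 0.29 over the 10 genes, which share libraries and depth.

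The order of levels differed between sets, which are given here as cells labelled Aire-/-, WT batch 2, June29 and June5. Tas2r113 was the steadiest, with 85.1, 116.7, 114.6 and 85.5 CPM. Tas2r104 had 52.4, 37.1, 58.98 and 52.05 CPM. Both were within 1.59-fold between the lowest and the highest set. Tas2r115 had 95.9, 57.5, 68.1 and 100.3 CPM, and Tas2r123 had 23.4, 19.6, 17.5 and 12.99 CPM. Tas2r102 was highest in June5, with 46.3, 59.4, 77.1 and 130.4 CPM, where 1 of 29 cells held 47.5% of its reads. Tas2r129 was lower in both sets of batch 1, with 61.7, 81.2, 37.6 and 18.99 CPM, and so was Tas2r136, with 19.7, 15.9, 6.26 and 6.52 CPM. Tas2r109 had 35.16, 52.99, 10.03 and 11.1 CPM and was the widest, 5.28-fold between its extremes.

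Within a positive cell the levels covered a wide range. Tas2r105 had 8.79 CPM in its lowest positive cell, 687 in the median and 7897 in the highest, and 11 cells held at least 50% of its reads. Tas2r102 had 10.0, 442 and 1483 CPM in its lowest, median and highest positive cells. Across the 10 genes the share of positive cells and the median level in them had a rho of -0.11. Tas2r117, with the largest share, had a median of only 81.7 CPM and a highest cell of 841 CPM. Tas2r136 had the lowest median, 58.5 CPM, with 419 CPM in its highest cell. Cells with 1 to 4 reads made up 17.9% for Tas2r105 and 1.99% for Tas2r136, and across the 10 genes this share moved with the CPM of the gene (rho 0.79). Whether such low reads come from the cell itself was not tested. The empty well of batch 1 held 1 read of the 10 receptors, from Tas2r105, among 9892 gene reads.

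**Figure D2:**
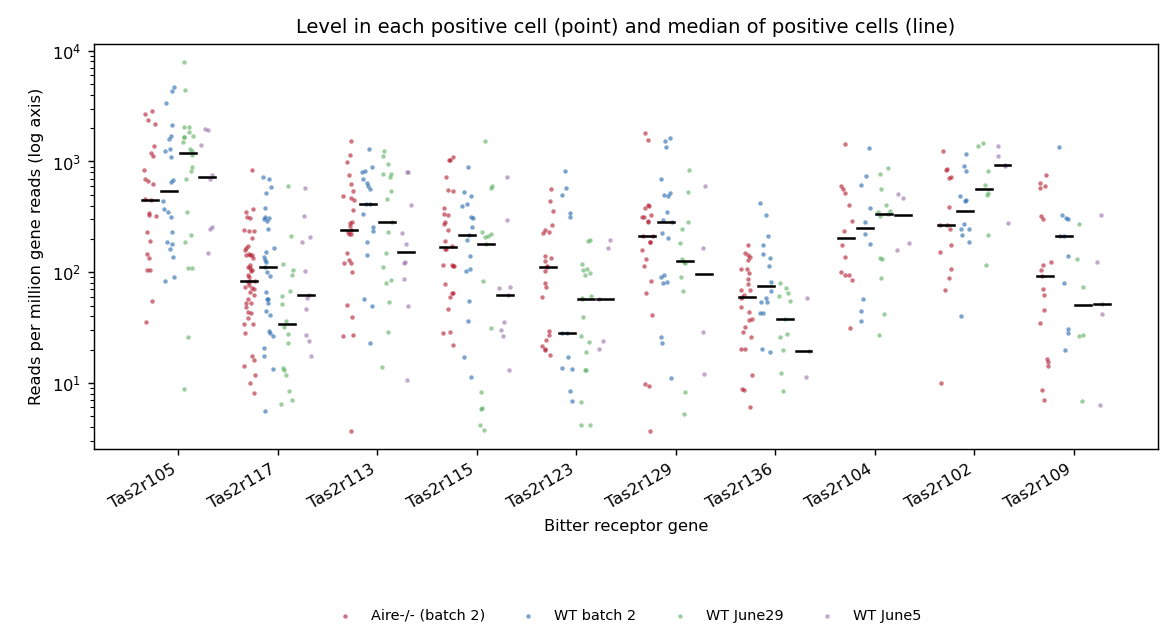
Each point is the level of a receptor in 1 positive cell (CPM, log axis), coloured by set, and the black line is the median of the set's positive cells. Tas2r105 reaches the highest values, up to 7897, and the medians of Tas2r136 lie between 19.6 and 75.3.

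Reads of 3 receptors are less certain than the rest. Of the words of 31 bases in Tas2r117, 45.2% also occur in other genes, against 14.01% in Tas2r109, 12.8% in Tas2r123 and at most 0.889% in each of the other 7. Among the genes that share them are the 3 receptors themselves and the pseudogenes Gm18689, Gm18690 and Tas2r111-ps2. Tas2r117 and Tas2r109 were also the most alike pair, with 80.9% identity over 948 aligned bases, and the median of the 45 pairs was 60.2%. How the authors counted reads that fit several genes is not given in the sources used here.

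Receptors were concentrated in a part of the cells. At least 1 of the 10 was positive in 66.7% of cells labelled Aire-/- (56.3 to 75.96), 50.6% of WT batch 2 (39.8 to 61.3), 50.6% of June29 (39.6 to 61.5) and 48.3% of June5 (29.4 to 67.5). June29 had the highest median depth. In cells thinned to 231697 gene reads the shares were 64.3%, 51.9%, 40% and 47.8% in the same order. At full depth, over all sets 44.5% of cells had none, 13.6% had exactly 1, 41.9% had 2 or more and 18.9% had 5 or more. Independent placement of each receptor within its set would give 10.5% of cells with none, 25.7% with 1, 63.8% with 2 or more and 4.21% with 5 or more. Cells with none and cells with many were both more frequent than that. The most receptors in a cell was 9, reached in 9 cells spread over all 4 sets, and no cell had all 10.

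**Figure D3:**
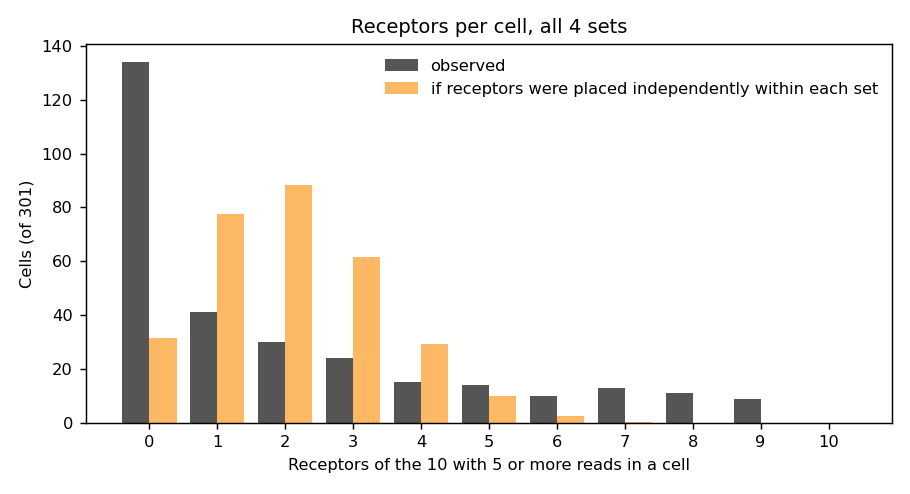
Grey bars give the cells (of 301) with each number of positive receptors, and orange bars the number if receptors were placed independently within sets. Observed cells exceed the orange bars at 0 and from 5 to 9 receptors, with 44.5% of cells at 0 against 10.5%.

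In cells with 2 or more receptors, the highest one held from 23.4% to 93.6% of the reads of the 10. With exactly 2, as in 30 cells, it holds about 50% or more in any case. Among the cells with 2 or more receptors, the highest receptor held a median of 53.8% of the reads of the 10 in cells labelled Aire-/-, 56.8% in WT batch 2, 66.5% in June29 and 54.5% in June5. Tas2r105 was the highest in 50 of those cells, Tas2r113 in 22 and Tas2r117 in 14, and Tas2r104 in 1. Of the 41 cells with exactly 1 receptor, 13 had Tas2r117, 9 Tas2r105 and 8 Tas2r123. None had Tas2r104 or Tas2r102: all 41 cells positive for Tas2r104 and all 40 positive for Tas2r102 had another of the 10, with a median of 6 others each. Few cells carried a large part of the reads. The 5 cells with the most held 51.4%, 45.8%, 48.6% and 86.8% of the receptor reads in the sets labelled Aire-/-, WT batch 2, June29 and June5.

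Every one of the 45 pairs was found together in more cells than independent placement gives. Summed over pairs and sets, there were 1387 joint occurrences where 593 would be expected, a ratio of 2.34. The ratio was 1.94 in cells labelled Aire-/-, 2.61 in WT batch 2, 2.89 in June29 and 2.66 in June5. A ratio can be larger for rarer genes, so it is read beside the shares given above.

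Tas2r102 and Tas2r109 had the highest ratio. They were together in 26 cells where 5.87 would be expected, 4.43 times as many, and they lie 217 kb apart on opposite strands. Next came Tas2r104 with Tas2r102 (4.06), with Tas2r109 (3.75) and with Tas2r129 (3.70), 3 pairs split between the blocks. Tas2r105 and Tas2r104, neighbours on the same strand and the next in this order, were together in 38 cells against 10.4 expected, a ratio of 3.67, so that 92.7% of Tas2r104-positive cells also had Tas2r105. The joint cells of this pair numbered 13 in the set labelled Aire-/-, 9 in WT batch 2, 12 in June29 and 4 in June5, above 3.50, 2.47, 3.29 and 1.10 expected. Tas2r105 and Tas2r123 had the lowest ratio, 1.61, with 24 cells against 14.9.

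**Figure D4:**
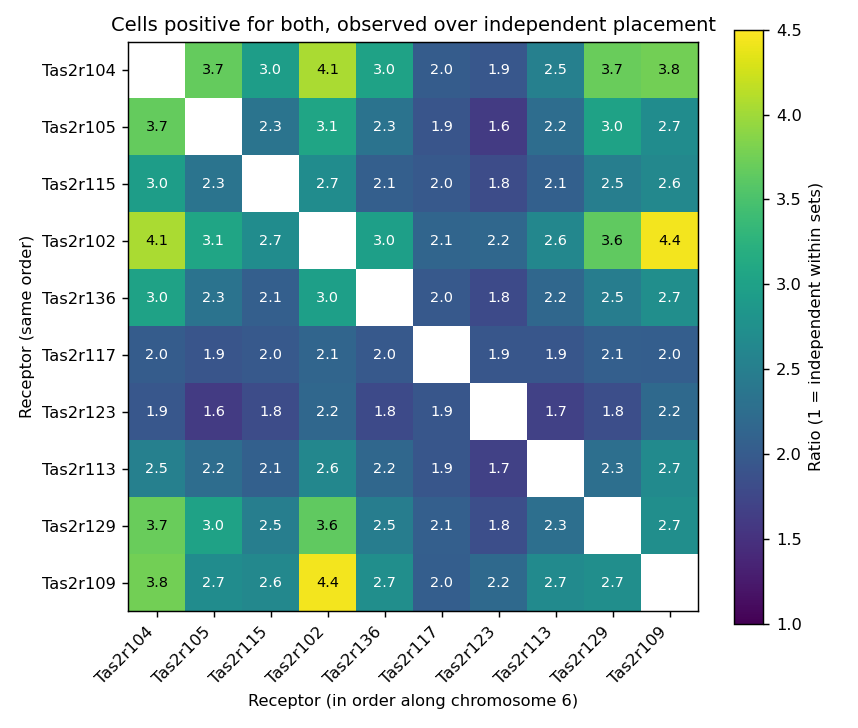
Each square gives, for 2 receptors in their order along the chromosome, the cells positive for both divided by the number under independent placement within sets. All ratios lie above 1, from 1.61 for Tas2r105 with Tas2r123 to 4.43 for Tas2r102 with Tas2r109.

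Distance and strand went with small differences. Pairs under 100 kb apart had a ratio of 2.19, those from 100 kb to 500 kb 2.36 and those over 500 kb 2.49, and pairs on the same strand had 2.36 against 2.32 on opposite strands. Every pair over 500 kb joins Tas2r104 or Tas2r105 to a receptor of the other block, so distance and gene cannot be told apart there. Sequence identity and ratio had a rho of -0.33 over the 45 pairs, which share genes and cells. Without the 3 receptors whose words are shared, the other 21 pairs had a ratio of 2.65. With every cell thinned to 231697 gene reads, which left out 30 shallower cells, it was 2.41. Within sets the number of positive receptors had a rho with gene reads of -0.17 in cells labelled Aire-/-, 0.17 in WT batch 2, 0.33 in June29 and 0.17 in June5, and with gene reads per spike-in read of 0.11, 0.085, 0.40 and 0.063. Wells with more than 1 cell were not called, and their part in the joint counts was not tested.

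Joint detection extended to the rest of the family. The 10 paired with other Tas2r genes of the distal cluster at a ratio of 2.76 over 130 pairs, and with Tas2r genes elsewhere at 1.99 over 60 pairs. Of the 19 other distal entries, 13 were positive in at least 10 cells, and 11 of these 13 were in no cell that lacked all 10 receptors. Tas2r116, for example, was positive in 26.3% of the cells with at least 1 of the 10 and in 0 of the others (up to 2.72%). Tas2r108, outside the cluster, was in 55.7% and 23.9%, and its ratio with the 10, 1.60, was the lowest of the paired genes elsewhere. Tas2r118, also outside, had the highest of them, 2.73, and was in 29.9% and 3.73%.

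Genes most like the 10 were ranked by the mean within-set Spearman rho between their CPM and the number of positive receptors, over 7451 non-Tas2r genes with a read in at least 20% of cells. The median of all ranked genes was 0.063 and the 95th percentile 0.22. Gnat3, the gustducin alpha subunit, had 0.67 in cells labelled Aire-/-, 0.68 in WT batch 2, 0.75 in June29 and 0.69 in June5. It was positive in 86.8% of cells with a receptor, against 41.04% of cells with none. The others of the highest 10 were Gm18690 (mean 0.76), Slitrk6 (0.60, a neuronal membrane protein), A630073D07Rik (0.54), Rgs21 (0.53, a regulator of G protein signalling in taste cells), Smim10l1 (0.52), Nrep (0.51), ENSMUSG00000110029 (0.49), Krt19 (0.49, a keratin of simple epithelia) and Commd1 (0.48). The lowest were Strip2 (-0.37), Dclk1 (-0.35, a kinase used as a tuft cell marker), Adgrg6 (-0.34), Laptm5 (-0.32) and S100a11 (-0.31).

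Gm18690, A630073D07Rik and Smim10l1 all lie at the cluster. They were the only 3 ranked non-Tas2r genes between the first and last of the 10 receptors or within 200 kb of them, and they ranked 1, 4 and 6. The 38 ranked genes from 0.2 to 5 Mb on either side had a median rho of 0.057 and a highest of 0.30. Gm18690, an unprocessed pseudogene at chr6:133017394-133018378, was positive in 67.7% of cells with a receptor and 2.99% of cells without. It shares 52.1% of its words of 31 bases with other genes, Tas2r117, Tas2r109 and Tas2r123 among them, so the assignment of its reads is uncertain. Against the number of the other 7 receptors its mean rho was 0.68. A630073D07Rik, a protein-coding gene inside the cluster at chr6:132625111-132651526, was positive in 76.05% of cells with a receptor and 20.1% of cells without. Smim10l1, at chr6:133104909-133110899, was in 88.6% and 55.97%.

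**Figure D5:**
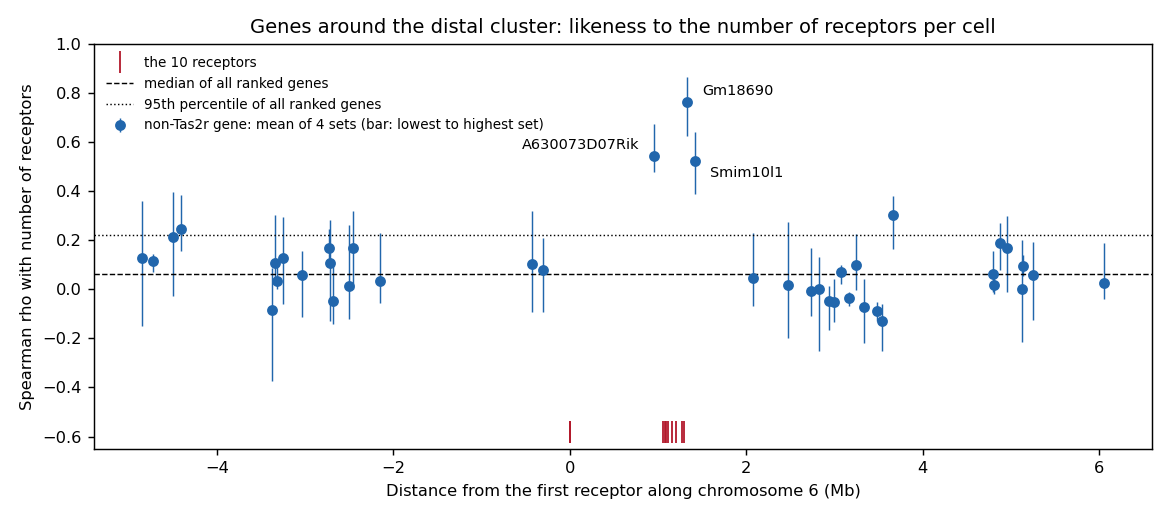
Points give, for each ranked non-Tas2r gene, the mean over 4 sets of the Spearman rho between its level and the number of positive receptors, by distance from the first receptor (Mb); bars span the lowest to the highest set. Gm18690, A630073D07Rik and Smim10l1 stand at 0.76, 0.54 and 0.52, and all other genes of the window at 0.30 or lower.

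Not every transcript of the interval was read. Of 30 non-Tas2r entries between the first and last receptor, 17 had no read in any kept cell and 4 were positive in at least 5% of cells. A630073D07Rik was the highest of these, with 51.2%. The salivary proline-rich protein gene Prp2 reached 5.98%.

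Signalling genes downstream of the receptors were found both with and without them. Of 16 taste transduction genes, the summed CPM had a mean rho of 0.53 with the number of receptors. Gnb3 had the highest CPM of the 16 in each set, so it weighed most in the sum. Single genes differed: the mean rho was 0.70 for Gnat3, 0.53 for Rgs21 and 0.47 for Gnb3. It was 0.23 for Itpr3, 0.16 for Plcb2, 0.034 for Gnai2 and -0.069 for Trpm5. Rgs21 was positive in 41.9% of cells with a receptor and 8.96% of those with none, and Gnb3, a G protein beta subunit, in 94.01% and 81.3%. Plcb2 was in 94.6% and 89.6%, and Trpm5 in 100% and 97.8%. Itpr3 was less frequent, in 29.9% and 23.1%, and Gnat1 and Gnat2 of the same list were in 0% of both. Tas1r1, a subunit of the umami receptor, was in 26.9% and 7.46%. The sum of 18 tuft cell markers had a mean rho of -0.031. Sums of other cell types' markers had mean rho values of -0.081 for Aire-expressing mTEC, -0.20 for microfold-like, -0.17 for dendritic cell or macrophage, -0.061 for B cell and -0.0013 for thymocyte markers. Lists above 0 were endothelial markers at 0.12, ciliated at 0.084, cortical epithelium at 0.035 and corneocyte-like at 0.021, and mTEC low, neuroendocrine-like and fibroblast markers were at -0.16, -0.025 and -0.0024. The endothelial value was 0.38 in WT batch 2, where the median sum was 124.6 CPM in cells with a receptor and 0 CPM in cells with none. Of the 89 cells of that set, 2 were positive for at least 2 of the 5 endothelial markers. The part of these markers in the result was not tested. Each value has cells of shared libraries and depth as points.

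Between cells labelled Aire-/- and WT cells of batch 2 no receptor passed a rule of size. To pass, a gene needed 5 CPM or more in 1 of the sets, log2 levels (CPM + 1) differing by 1 or more, and a gap of 15 points or more between the shares with the same sign, and of 12759 genes 0.705% passed as higher and 0.274% as lower. At 20 CPM or more it was 1.02% and 0.399% of 8267 genes. A gap of 15 points is out of reach for a rare receptor. Tas2r123, Tas2r104, Tas2r102 and Tas2r109 were positive in 13.5%, 11.2%, 13.5% and 12.4% of WT batch 2 cells, so the rule could not call them lower. Tas2r104, with 14.6% in cells labelled Aire-/-, could not be called higher either. The summed level was 673 CPM in cells labelled Aire-/- and 757 CPM in WT batch 2, a log2 fold of -0.17. Single receptors had log2 folds from -0.58 (Tas2r109) to 0.73 (Tas2r115), with 4 of 10 above 0 and a median of -0.25, against -0.067 over all genes. Single cells weighed on these folds: without the richest cell of the higher set, Tas2r109 was at 0.64, Tas2r104 at -0.14 (0.49 with it) and Tas2r136 at -0.12 (0.29 with it).

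At 5 reads, more cells labelled Aire-/- were positive for each receptor. The gap was above 0 for all 10, from 0.281 to 16.2 points with a median of 7.67, where all genes had a median of 1.51 and 59.8% of them a gap above 0. It was above 0 for 9 of 10 at 10 reads, where Tas2r105 turned, and for 8 of 10 in thinned cells, where Tas2r105 had 23.8% against 26.6% and Tas2r102 had 11.9% against 15.2%. The median gap was then 2.22 points. Gaps over all genes were not computed at 10 reads or in thinned cells. As the receptors were often positive in the same cells, their gaps are not independent of each other. Tas2r117 had the widest gap, 51.04% (40.6 to 61.4) in cells labelled Aire-/- and 34.8% (25.04 to 45.7) in WT batch 2, while its level was 57.1 CPM against 63.1 CPM. Tas2r136 had 29.2% and 17.98%, and Tas2r123 had 23.96% and 13.5%. Tas2r105 had 24 of 96 cells and 22 of 89. The intervals overlap in each case. In positive cells the median level was lower in the set labelled Aire-/- for 9 of the 10, as for Tas2r109 with 92.7 CPM against 212 CPM. It was higher for Tas2r123, with 110.7 CPM against 28.2 CPM. How many of all genes had a lower median in positive cells was not computed. Cells with Aire reads were also more frequent in the set labelled Aire-/-, 33.3% against 7.87%, and their part in these shares and levels was not tested.

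The authors' well table numbers the wells of batch 2 as 1 or 2 under the header Batch. These 2 groups are called plates here, a name that the header does not give. The 2 plates differed in level but not in the direction of the share of cells with a receptor. On plate 1 that share was 77.1% (62.7 to 87.97) in cells labelled Aire-/- against 58.3% (43.2 to 72.4) in WT. On plate 2 it was 56.3% (41.2 to 70.5) against 41.5% (26.3 to 57.9), and the intervals overlap on both plates. The summed level was 950.1 CPM against 676 CPM on plate 1 and 392 CPM against 855 CPM on plate 2. For levels, 1 of 10 receptors, Tas2r113, had the same sign of the log2 fold on both plates. For shares, 10 of 10 were higher in cells labelled Aire-/- on plate 1 and 7 of 10 on plate 2. The receptors were often positive in the same cells, so they are not independent items in such counts. The same counts over all genes were not computed per plate.

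The WT sets also differed among themselves. Against June29, WT batch 2 had 0 of 10 receptors past the rule, with 2.44% of all genes higher and 3.2% lower. Against June5 it had 0 of 10, with 1.49% higher and 4.39% lower. Tas2r104, Tas2r102 and Tas2r109 were each below 15% of cells in WT batch 2 and in June29, so the rule could not call them there. By level alone, 4 of 10 receptors differed by a log2 of 1 or more against June29, as did 38.1% of all genes. Against June5 it was 4 of 10 and 43.7%. Between June29 and June5 the rule called Tas2r117 lower, 1 of 10, with 16.9 CPM and 20.7% of cells in June29 and 65.2 CPM and 37.9% in June5, where 1.43% of all genes were higher and 2.41% lower. Tas2r109 had a log2 fold of 2.29 for WT batch 2 over June29, 52.99 CPM against 10.03 CPM, with 12.4% against 6.90% of cells, and 1 cell held 59.2% of its reads in WT batch 2. Tas2r105 had close shares of positive cells at 5 reads, with 24 of 96, 22 of 89, 22 of 87 and 8 of 29 cells in cells labelled Aire-/-, WT batch 2, June29 and June5, while its levels, 196, 253.1, 431 and 277 CPM, spanned 2.20-fold. Between WT batch 2 and either set of batch 1, the batch and the set cannot be told apart.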

How the data were processed

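The authors deposited raw counts of reads per gene, in 1 table of WT and 1 of Aire-/- wells, for 317 of 319 samples and 48795 genes beside 92 spike-ins. Per the submitters' processing notes, STAR, featureCounts 1.5.3, Subread and R 3.4.0 were used with GRCm38, and the annotation is not given in the sources used here. The score the authors deposited per gene and well gave no value here, and only its list of wells was used. Gene positions came from GENCODE on GRCm38.

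Kept cells had at least 10000 gene reads (without spike-ins), 1000 genes with a read and at most 20% mitochondrial reads. No doublet caller was run. Reads were summed per set as CPM with exact Poisson intervals, and shares have exact Clopper-Pearson intervals, both at 95%. A count of 0 allows up to 3 counts. Without molecular identifiers, PCR copies are counted as separate reads. Expected joint cells are the product of 2 shares and the cells of a set, summed over 4 sets. The genes named as most alike are the 10 highest and 5 lowest by mean rho. The protocol does not mark strand. Cells were grouped by label and thymi were pooled, so no test was run. The receptors, lists and rules were chosen with earlier results of these data known. Python 3.11.15, numpy 2.4.6, SciPy 1.17.1 and Biopython 1.88 were used, and the size rule and pair ratio were tested on simulated data. For the rule, the simulated changed genes had larger shares of positive cells than most of the 10 receptors had in WT batch 2. How the rule does on genes as rare as these was not tested.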

Additional observations from a re-analysis of the deposited data

Results flagged for a closer look

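Wells that the sample titles call 50 cells, where the series' design text speaks of 100 cells, entered no comparison. The Aire-/- well held 204 reads of the 10 receptors, 378 CPM (328 to 434), with all 10 at 5 or more reads. The WT well held 339 reads, 470 CPM (422 to 523), with 8 of 10 at 5 or more, Tas2r136 at 3 reads and Tas2r123 at 0, which allows up to 4.16 CPM. Both sums were above that of the no-cell well, 101.1 CPM from 1 read, whose own interval reaches 563 CPM. Tas2r105 was the highest receptor in both, at 157.5 CPM in the Aire-/- well and 150 CPM in the WT well.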

How the results depend on the processing

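With 1 read as the limit in place of 5, at least 1 receptor was found in 82.3% of cells labelled Aire-/-, 68.5% of WT batch 2, 83.9% of June29 and 79.3% of June5, and the pair ratio was 1.75. At 10 reads, in thinned cells, with no filter on wells, with the wells of the authors' score table, without cells with haematopoietic markers and without the cell richest in receptor reads, all 4 shares stayed within their intervals and the pair ratio lay between 2.29 and 2.44. Thinned shares were 54 of 84, 41 of 79, 34 of 85 and 11 of 23 cells in those sets. The pair ratio was 2.65 without Tas2r117, Tas2r123 and Tas2r109 and 2.58 when Tas2r129 was left out too, both chosen after seeing the data. The log2 fold of the summed level, -0.17, was -0.26 in thinned cells, -0.28 without cells with haematopoietic markers, -0.23 without the richest cell of each set and -0.070 as a mean of cells, but 0.49 on plate 1 and -1.12 on plate 2. The cause was not tested. Without its richest cell in the higher set, 3 of 10 receptors changed the sign of their fold. No paired analysis was possible because the results come from no test, and values within each plate stand in its place. Depth limits receptors with few reads, and June5 has 29 cells.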
